A study of Mus musculus with 24 samples.

Results

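The data compare the transcriptomes of Olfml3 knockout and wild-type bone marrow-derived macrophages (BMDMs) after 4 h with lipopolysaccharide (LPS), the outer-membrane lipid of Gram-negative bacteria. The comparison used 6 of the 24 libraries of the series, 3 from Olfml3 knockout BMDMs and 3 from wild-type BMDMs, all treated with 100 ng/mL LPS, and the 6 PBS-treated BMDM libraries served as the untreated background. The knockout came from a C57BL/6 Olfml3-/- mouse line made with CRISPR-Cas9. The gene is lost in all cells and not in macrophages alone, so the marrow had also developed without it. The sources used here do not say whether the wild-type mice were littermates. Whether differences came from Olfml3 or from other features of the line or culture was not tested. Tibia and fibula marrow of 8-week-old male mice was cultured for 6 days with 10% fetal bovine serum and 20% supernatant of L929 cells, a source of macrophage colony-stimulating factor, and the poly(A) RNA was read from both ends over 150 bases. Libraries were grouped by title and library name. The genotype tag contradicted the title in 3 of the 6 LPS libraries, where it called the wild-type libraries knockout, and in 6 of the 12 BMDM libraries. The study calls its replicates biological, and nothing in the sources used here says whether they were separate animals or separate dishes, so the p-values measure only the spread between these libraries, which may in part be technical.

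OLFML3 is a secreted glycoprotein of the olfactomedin family. In macrophages, LPS is bound by CD14, MD-2 and TLR4, and the signal runs through one branch by way of MyD88, which activates NF-kappaB and MAP kinases and induces cytokines and neutrophil-attracting chemokines, and another by way of TRIF and IRF3, which induces interferon-beta. Interferon-beta then acts back on the same cells through its receptor and switches on interferon-stimulated genes, and IRF8 helps to maintain the related set that interferon-gamma induces, to which the GBP and IRG immunity GTPases and the chemokines CXCL9, CXCL10 and CXCL11 belong.

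The 6 LPS libraries held between 17121240 and 22815104 gene counts. Olfml3 itself had between 33 and 35 counts in each wild-type LPS library and 102 in all, against 1 count over the 3 knockout LPS libraries. The knockout level was thus 0.963% of wild type, with an exact conditional 95% interval of 0.0241% to 5.49% that covers counting error only. With PBS the knockout libraries held 6 counts against 243 in wild type, or 2.56% (95% interval 0.930% to 5.65%). The transcript therefore matched the titles and not the genotype tag. Wild-type LPS replicates differed from each other by 4.76 to 10.4 times the variance that counting alone gives (chi-square per degree of freedom), and the widest pairs, at 10.4 and 8.50, held replicate 1, without which 1257 genes were called in the LPS comparison described below, against 1296 with it. The knockout LPS pairs differed by 1.83 to 1.98 and the PBS pairs by 1.76 to 2.68. Macrophage markers dominated all 12 libraries, and the summed level of 13 of them was 18738 to 19332 with wild type and 17283 to 17542 with knockout after LPS. Levels here and below are fragments scaled to gene length and library size (FPKM) with library sizes rescaled by trimmed mean of M values (TMM) factors, called TMM-scaled FPKM.

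Of 14057 genes tested with edgeR's quasi-likelihood test, 1296 (9.22%) differed between knockout and wild type with LPS at an adjusted p under 0.05 and a fold of at least 1.5, and such genes are called changed. They were split evenly, 648 higher in knockout (4.61%) and 648 lower (4.61%), and the median log2 fold change over all genes tested was 0.01 (interquartile range -0.19 to 0.22). A total of 4898 genes passed on the adjusted p alone. With PBS, 530 genes were called (3.77%), 255 higher (1.81%) and 275 lower (1.96%). The genotype difference with LPS departed from that with PBS in 801 genes (5.70%), tested as an interaction term in the same model. In these bulk libraries fewer cells of a type and less RNA per cell cannot be told apart.

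The balance between higher and lower genes turned on how the libraries were scaled. TMM factors were 0.740 to 0.742 in the wild-type LPS libraries and 0.817 to 0.821 in the knockout LPS libraries, a difference between genotypes with almost no spread within them. When libraries were scaled by their totals alone, 1573 genes were called, of which 1142 were higher and 431 lower (72.6% higher, against 50% with TMM), and the median over all genes tested moved to 0.15 on the log2 scale. Limma on log2(FPKM + 0.1), which carries the same total-based scaling, gave 872 higher and 413 lower (67.9% higher). Relative log expression (RLE) factors gave 606 and 691, DESeq2 595 and 670, and upper-quartile factors 701 and 599. Changes below are relative to the TMM scale, and in lists with few calls the balance depended on it. Library totals alone turned more lower than higher calls into the opposite in the list of interferon regulatory factors (from 1 higher and 3 lower to 2 and 1), the LPS-induced cytokines (from 4 and 5 to 6 and 3), the AP-1 and EGR genes (from 2 and 3 to 3 and 2), the p53 targets (from 1 and 2 to 2 and 0), the Bcl-2 family (from 0 and 1 to 1 and 0), the integrins (from 0 and 1 to 2 and 1) and the MHC class II genes (from 0 and 3 to 1 and 0). They evened the counts in the chemoattractant receptors, LPS receptor complex, matrix proteases, inflammasome genes and citrate cycle enzymes. Lists with equal counts on the TMM scale gained a higher balance with library totals, namely the feedback phosphatases and mRNA decay factors, the macrophage lineage factors and the cholesterol efflux genes, and the NF-kappaB and actin lists, with no call on the TMM scale, gained 1 higher gene each.

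**Figure D1:**
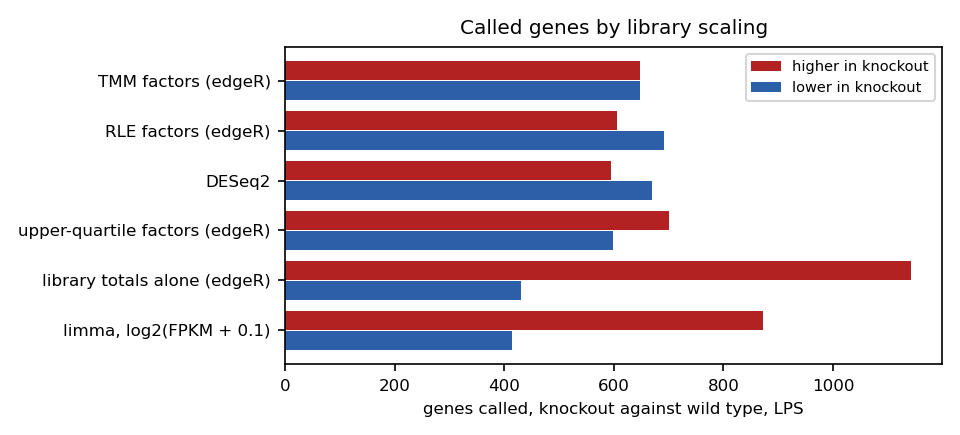
Number of genes called higher (red) or lower (blue) in knockout against wild-type BMDMs with LPS (x axis, genes) under 6 library scalings or tests (y axis). TMM factors gave 648 in each direction, whereas library totals alone gave 1142 higher and 431 lower.

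Across lists of genes grouped by function, the calls in the interferon-response lists were lower in knockout and those in the mitosis list higher, while the CXC and CX3C chemokines moved in both directions and NF-kappaB genes, actin genes and respiratory chain genes gave no call on the TMM scale. The lists were chosen with earlier results of these data known, so their counts are set beside the 9.22% of all genes called and carry no test of their own.

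**Figure D2:**
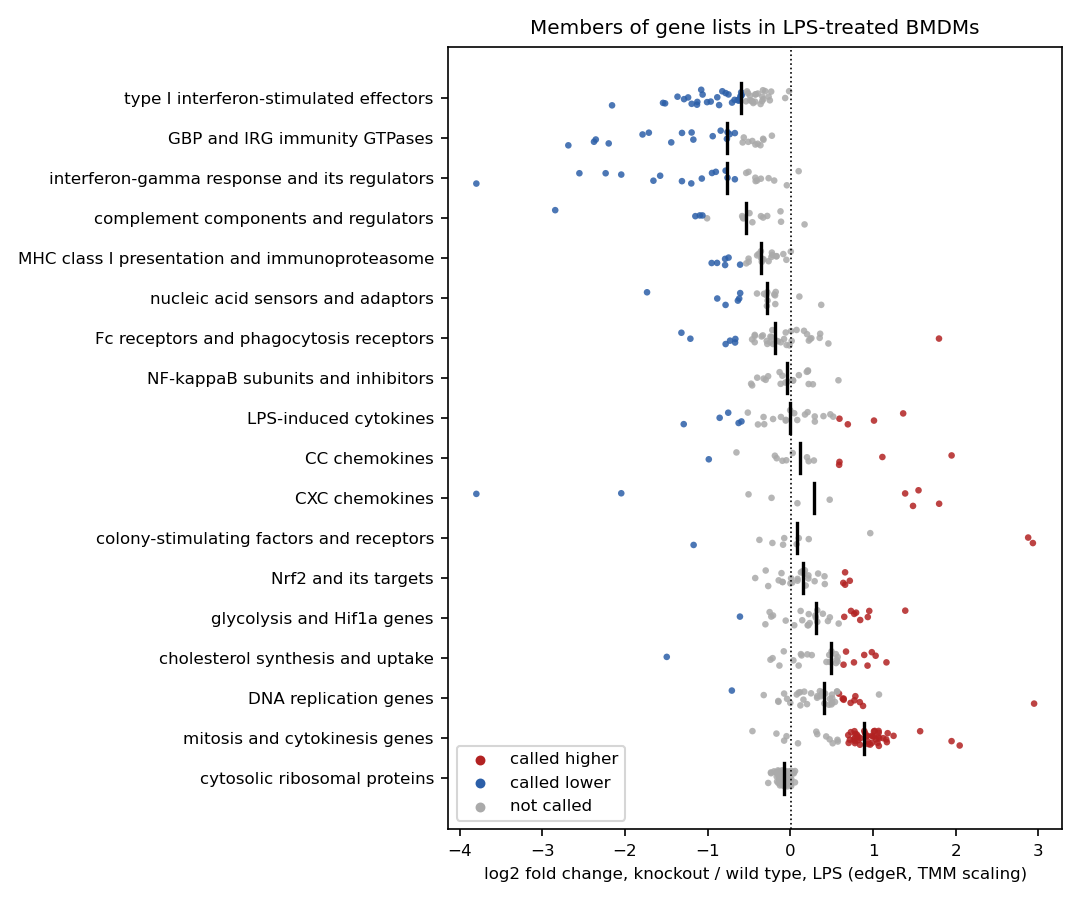
Log2 fold changes of knockout over wild type with LPS (x axis, edgeR with TMM scaling) for the tested members of 18 gene lists (y axis); each dot is a gene, red where called higher, blue where called lower and grey where not called, and the black bar is the list's median. The type I interferon, GBP and interferon-gamma lists sit to the left, with medians of -0.60, -0.76 and -0.77, and the mitosis list to the right at 0.89.

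Among interferon-gamma response genes Cxcl9 had the largest fall, and Irf8, a transcription factor of the set, fell as well. Of 24 list members tested, 14 were lower and none higher (58.3% called, median log2 fold change -0.77). Cxcl9, a chemokine that draws activated T cells and is induced by interferon-gamma and IRF8, stood at 358, 324 and 330.0 TMM-scaled FPKM in the wild-type libraries and at 27.4, 22.5 and 22.8 in the knockout libraries. The groups did not overlap, which was a condition for naming the largest rises and falls. How many of all genes tested showed no overlap is not given here, and 4898 of them passed on the adjusted p alone. The fold was 13.9 (log2 fold change -3.80 ± 0.09, SE, edgeR adjusted p = 1.02e-10), the largest fall among the genes eligible for naming. Cxcl11, a ligand of the same receptor CXCR3, had levels of 39.5, 32.3 and 35.0 against 9.04, 8.36 and 8.48 (log2 fold change -2.05 ± 0.06, edgeR adjusted p = 7.05e-26). Cxcl10, the third ligand of CXCR3, was also lower in every knockout library, at 2192 to 2284 TMM-scaled FPKM against 3069.5 to 3404, but its fold of 1.42 was under the threshold (log2 fold change -0.51 ± 0.04, edgeR adjusted p = 6.99e-12). Both genes were nearly silent without LPS, with 25 and 13 counts of Cxcl9 and 5 and 5 of Cxcl11 over the 3 wild-type and the 3 knockout PBS libraries.

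Irf8, the transcription factor of the IRF family that sets macrophage and dendritic cell identity and drives interferon-gamma and TLR targets, stood at 240.5, 223 and 229 TMM-scaled FPKM in wild type and at 52.0, 45.9 and 49.2 in knockout. This was a 4.71-fold fall (log2 fold change -2.23 ± 0.04, edgeR adjusted p = 1.71e-33). With PBS the means were 25.9 in wild type and 20.9 in knockout, a difference of -0.31 on the log2 scale that fell short of the 1.5-fold minimum for a call (edgeR adjusted p = 5.92e-08). The genotype difference was larger with LPS than with PBS, with an interaction of -1.93 ± 0.05 (edgeR adjusted p = 2.94e-26). Of 11 genes tested in the list of interferon regulatory factors, which also holds 3 genes of IRF2-binding proteins, 3 were lower and 1 higher (36.4%). The lower ones were all IRF genes, and the higher one was Irf2bpl, of the binding proteins, at 3.66 ± 0.206 against 2.34 ± 0.279 (SD, n = 3), a call lost without wild-type LPS replicate 2. Irf7, the factor that amplifies type I interferon, fell from 271, 249.9 and 257 to 164, 154 and 161 TMM-scaled FPKM, and Irf5, which works downstream of MyD88, fell from 138, 130.5 and 137 to 88.4, 86.9 and 91.3. Both calls were close to the 1.5-fold limit, at 1.62 and 1.52, and both were lost with library totals alone, that of Irf5 also with upper-quartile factors. Irf1, an interferon-induced factor, was at 229, 226 and 228 in knockout against 340.4, 322 and 325 in wild type, a 1.45-fold difference that was not called (edgeR adjusted p = 2.06e-15).

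At the head of the pathway, Ifnb1, which encodes interferon-beta, had 311 counts over the wild-type LPS libraries and 116 over the knockout ones. Its TMM-scaled FPKM was 8.82, 9.67 and 6.68 against 2.86, 3.08 and 3.32, with no overlap (log2 fold change -1.45 ± 0.20, edgeR adjusted p = 2.55e-07). With PBS, Ifnb1 had 3 counts over the wild-type libraries and 0 over the knockout ones, and was not called (edgeR adjusted p = 0.226). The interferon receptors and most JAK-STAT genes gave no call. Over 24 such genes, 3 were lower and none higher (12.5%, median -0.11), namely Ifnb1, Stat3 and Socs1. Socs1, the feedback inhibitor of JAK kinases, fell 2.30-fold, from 51.2, 40.2 and 39.7 TMM-scaled FPKM to 20.6, 16.2 and 20.6 (edgeR adjusted p = 2.58e-05), whereas Socs3, the inhibitor of IL-6 receptor signals, was at 364 to 379.5 against 345 to 366 and overlapped. Stat3, which transmits the IL-10 signal, fell from 70.2, 71.1 and 72.7 to 45.5, 45.4 and 44.1, a 1.59-fold difference that library totals alone take under the threshold.

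Further genes of the interferon-gamma list fell. Serpina3g, a serine protease inhibitor of activated macrophages, went from 103, 93.4 and 95.1 TMM-scaled FPKM to 33.3, 29.3 and 29.8 (log2 fold change -1.66 ± 0.05, edgeR adjusted p = 7.05e-26). Il18rap, the signalling chain of the IL-18 receptor, was 5.86-fold lower, at 0.544, 0.692 and 0.400 against 3.26, 3.35 and 3.19. Upp1, uridine phosphorylase, fell 2.98-fold, from 30.4, 23.4 and 25.04 to 8.39, 8.87 and 9.29. In all 3 genes the groups were apart, which was a condition for naming Il18rap among the largest falls. None of the 3 genes was called with PBS.

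The GBP and IRG GTPases, which coat and break up pathogen vacuoles, were lower as a family. All 26 tested members had a negative log2 fold change, 16 were called lower and none higher (61.5%, median -0.76), and the counts under other scalings ran from 14 to 17 lower. Iigp1 went from 307, 287 and 297 TMM-scaled FPKM to 63.2, 54.9 and 53.4, a 5.19-fold fall (log2 fold change -2.38 ± 0.07, edgeR adjusted p = 1.63e-10). Tgtp1 fell 4.59-fold, from 28.2, 26.1 and 27.4 to 5.87, 6.03 and 5.88. Gbp4 stood at 57.4, 54.7 and 57.6 against 17.2, 16.2 and 15.8, and Gbp11 at 7.04, 5.57 and 6.75 against 2.16, 1.83 and 1.90. The members with the highest levels moved less. Gbp2 was at 1468 ± 29.2 in wild type and 993 ± 22.7 in knockout (SD, n = 3), a fold of 1.48 that was not called, Gbp5 at 713 ± 12.3 and 542 ± 8.92, and Igtp at 392 ± 11.0 and 275 ± 2.15. Irgm1, the regulator of the other IRG proteins, was called at 1.70-fold lower (366, 343 and 345 against 207, 208 and 205). Tgtp1 and Tgtp2, and several Gbp genes, are near-identical copies, so their split between loci is uncertain.

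The upstream sequences of a few leading genes are shown because they hold the letters of the elements through which interferons are known to act on this class of gene. Promoters are the 250 bases before the first listed RefSeq start in GRCm38.p6, 5′ to 3′ on the gene's strand, and capitals mark a match on either strand to TTCNNNGAA, called GAS-like after the interferon-gamma-activated site, or to GAAA followed by any 2 bases and GAAA, called ISRE-like after the interferon-stimulated response element, which IRF proteins bind. Irf8 (chr8:120736108-120736357, plus strand) held 2 GAS-like matches, Tgtp1 (chr11:48992247-48992496, minus strand) 1 of each kind, and Ifit3 (chr19:34583279-34583528, plus strand), a type I interferon-stimulated gene described below, 2 ISRE-like matches read on the opposite strand.
Irf8: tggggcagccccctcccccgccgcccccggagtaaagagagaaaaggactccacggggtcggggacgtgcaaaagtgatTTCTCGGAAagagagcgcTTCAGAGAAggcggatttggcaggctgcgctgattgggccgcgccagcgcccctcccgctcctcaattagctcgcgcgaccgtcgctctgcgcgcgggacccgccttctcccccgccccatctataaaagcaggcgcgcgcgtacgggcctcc
Tgtp1: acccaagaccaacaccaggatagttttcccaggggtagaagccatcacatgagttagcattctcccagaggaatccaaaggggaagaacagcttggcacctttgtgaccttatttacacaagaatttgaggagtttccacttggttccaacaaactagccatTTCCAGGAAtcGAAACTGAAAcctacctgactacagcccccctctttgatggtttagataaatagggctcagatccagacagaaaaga
Ifit3: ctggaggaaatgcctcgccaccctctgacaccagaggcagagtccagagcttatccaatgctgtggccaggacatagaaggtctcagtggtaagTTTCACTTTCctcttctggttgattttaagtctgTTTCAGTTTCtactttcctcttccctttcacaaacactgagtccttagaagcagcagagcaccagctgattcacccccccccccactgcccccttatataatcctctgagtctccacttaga
The ISRE-like letters stood in 3.04% of the 27025 promoters in the table and in 2.9% of the 9971 that belong to genes tested. They stood in 43 of 436 promoters of genes called lower with LPS (9.86%) and in 9 of 487 called higher (1.85%). Among genes called lower with PBS the share was larger, at 52 of 197 (26.4%). By list the ISRE-like letters were in 11 of 15 GBP and IRG promoters and in 24 of 40 of type I interferon-stimulated genes. They were also in 6 of 56 promoters of cytosolic ribosomal protein genes (10.7%), a list with no call. The GAS-like letters were in 7.18% of all promoters, in 56 of 436 of the lower genes (12.8%), in 23 of 487 of the higher genes (4.72%) and in 7 of 15 GBP and IRG promoters. The 2 patterns did not overlap in the promoters printed. The patterns and the genes shown were chosen after the values were seen, and a match is a description of letters and not of binding.

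Type I interferon-stimulated effectors, the antiviral genes switched on by interferon-beta, were lower in knockout both with and without LPS. With LPS, 27 of 50 tested members were lower and none higher (54.0%, median log2 fold change -0.60). Library totals alone left 18 lower and none higher, and among named members Oasl2 lost its call (208 ± 3.63 against 133 ± 0.242; SD, n = 3). With PBS, 49 of the 50 were lower, beside 1.96% of all genes, with a median of -2.22. Ifit3, an antiviral protein of the IFIT family, had levels of 1112, 1000.4 and 997 TMM-scaled FPKM against 412, 411 and 383 with LPS, a 2.58-fold fall (log2 fold change -1.37 ± 0.10, edgeR adjusted p = 4.57e-06). Without LPS its means were 45.2 ± 7.59 and 4.34 ± 0.424 (SD, n = 3). Ifi206 and Ifi213, members of the family of DNA-binding p200 proteins, fell 2.91-fold (138, 137 and 141 against 48.8, 48.2 and 45.6) and 2.86-fold (33.5, 32.2 and 32.6 against 12.2, 11.1 and 11.1). Oas1g, one of the oligoadenylate synthetases that activate RNase L, fell 2.44-fold. Ifi27l2a, a small interferon-induced membrane protein, was at 67.0, 59.9 and 60.1 in wild type and 15.0, 13.8 and 12.9 in knockout (log2 fold change -2.16 ± 0.09, edgeR adjusted p = 1.22e-20). Ifit3 and Oas1g have near-identical neighbours in their clusters, so the division of reads among copies is uncertain.

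The genotype difference was smaller with LPS than with PBS in 49 of the 50 genes by the interaction term, beside 5.70% of all genes called for that term in either direction. Isg15, a ubiquitin-like modifier, had means of 1024 ± 99.6 and 829 ± 18.4 TMM-scaled FPKM with LPS (SD, n = 3; fold 1.24, not called), after 20.9 and 3.12 with PBS (log2 fold change -2.72). Mx1, an antiviral GTPase, was at 974, 997 and 1002 against 707, 714 and 742, and Rsad2, which encodes viperin, at 4531, 4572 and 4592 against 3355, 3314 and 3220.2. In both genes no knockout library reached a wild-type one, with folds of 1.37 and 1.38 that were not called. Oasl1, which restrains translation of Irf7, went from log2 fold change -4.06 with PBS to -0.42 with LPS (interaction 3.65 ± 0.24, edgeR adjusted p = 1.04e-14). Ccl5, a chemokine under both NF-kappaB and IRF control, had the largest positive interaction among the genes eligible for naming whose interaction was called. With PBS its level was 12.8 ± 0.726 in wild type and 0.669 ± 0.189 in knockout, and with LPS it was 2135, 1883 and 1865 against 1863, 1803 and 1835 (log2 fold change -0.10, edgeR adjusted p = 0.0706, not called; interaction 4.12 ± 0.15, edgeR adjusted p = 1.23e-16). The sign of the Ccl5 difference with LPS turned to 0.05 with library totals. The comparisons with LPS and with PBS rest on separate libraries of both genotypes.

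**Figure D3:**
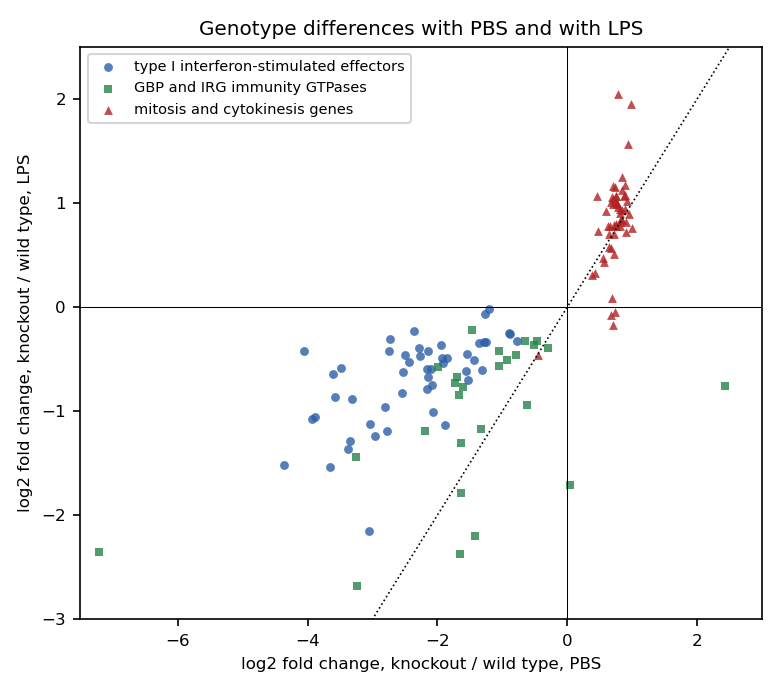
Log2 fold changes of knockout over wild type with PBS (x axis) and with LPS (y axis) for type I interferon-stimulated effectors (blue circles), GBP and IRG GTPases (green squares) and mitosis genes (red triangles); the dotted line marks equal values. Type I effectors lie above the line at the left, with medians of -2.22 with PBS and -0.60 with LPS, and mitosis genes lie near the line at the right, with medians of 0.75 and 0.89.

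Some sensors of foreign nucleic acid were lower. Of 18 tested, 6 were lower and none higher (33.3%, median -0.29), a count that library totals alone bring to 3. Sting1, the adaptor that turns cyclic GMP-AMP into an interferon signal, stood out: it was at 23.5, 22.2 and 22.7 TMM-scaled FPKM in wild type and 7.40, 6.52 and 6.59 in knockout (log2 fold change -1.73 ± 0.06, edgeR adjusted p = 1.28e-23). With PBS its means were 10.8 and 8.83, so that LPS went with a higher level in wild type and a lower one in knockout (interaction -1.44, edgeR adjusted p = 3.76e-16). Zbp1, a sensor of Z-form nucleic acid, fell from 131, 124 and 127 to 69.9, 69.9 and 67.2, and Tlr3, the receptor for double-stranded RNA, from 54.8, 53.1 and 55.4 to 31.8, 31.7 and 31.4. Both kept the groups apart.

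Some antigen presentation genes fell. In the MHC class I list 6 of 25 were lower and none higher (24%, median -0.35). B2m, the invariant light chain, was at 5916, 5229.5 and 5153 TMM-scaled FPKM against 3275, 3265 and 3165 (log2 fold change -0.75 ± 0.04, edgeR adjusted p = 3.83e-14), and H2-T23 fell 1.73-fold. H2-D1 was called at 1.52-fold lower, a call lost with library totals and without wild-type LPS replicate 1, and the H2 class I genes share long stretches of sequence. Tap1, the peptide transporter, was at 159.5 ± 7.67 and 121 ± 2.06 (SD, n = 3) and was not called. In the class II list 3 of 13 were lower and none higher (23.1%, median -0.23), but this direction did not survive rescaling, since library totals alone gave 1 higher and none lower. H2-Aa was at 16.3, 15.0 and 15.9 against 9.90, 9.30 and 9.52, and Ctss, the protease cathepsin S, at 4018, 3678 and 3614 against 2389, 2417 and 2364, both calls lost with library totals. Ciita, the coactivator of class II genes, was at 4.43, 4.67 and 4.69 against 3.14, 3.52 and 3.65 and was not called. Among costimulatory ligands, Cd86 fell 1.73-fold (56.0, 51.3 and 53.7 against 30.9, 31.6 and 30.6) and Cd83 1.54-fold, a call lost with library totals, whereas Cd40 was at 512 ± 7.32 in knockout and 579 ± 19.8 in wild type and was not called.

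Some complement genes and Fc receptors were also lower. Among 16 complement genes 4 were lower and none higher (25%, median -0.53), with log2 fold changes from -2.84 to 0.17. C1ra, a serine protease of the C1 complex, was at 10.3, 10.3 and 9.92 TMM-scaled FPKM against 4.61, 4.61 and 4.53 (log2 fold change -1.15 ± 0.09, edgeR adjusted p = 6.21e-14), and C3, the central component, at 249.5, 289.6 and 296 against 202, 195 and 196, which was not called. Of 38 Fc and phagocytosis receptors 6 were lower and 1 higher (18.4%, median -0.19). Fcgr4 and Fcgr1, which bind IgG and activate the cell, fell 2.49-fold (293, 269.8 and 271 against 118, 107 and 109) and 1.72-fold (365, 341 and 347 against 209, 200.1 and 203). Fcgr3, another activating IgG receptor, had means of 328 ± 8.04 in wild type and 237.7 ± 4.15 in knockout (SD, n = 3), a fold of 1.38 that was not called. Fcgr2b, the inhibitory IgG receptor, was at 147, 147 and 149 in knockout and 130.0, 129 and 135 in wild type, higher in every knockout library but with a fold of only 1.12. Siglec1, the sialic acid receptor CD169, fell 2.31-fold, Mertk, which takes up apoptotic cells, 1.66-fold, and Clec7a, the beta-glucan receptor dectin-1, 1.59-fold. The call of Clec7a was lost with library totals, and those of Mertk and Clec7a with limma on log2(FPKM + 0.1). Marco, the scavenger receptor for bacteria and particles, was the exception and rose 3.47-fold, from 2.31, 3.77 and 3.48 to 10.9, 11.4 and 10.9 (log2 fold change 1.80 ± 0.12, edgeR adjusted p = 5.9e-15). With PBS its level was 0.635 and 0.617.

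**Figure D4:**
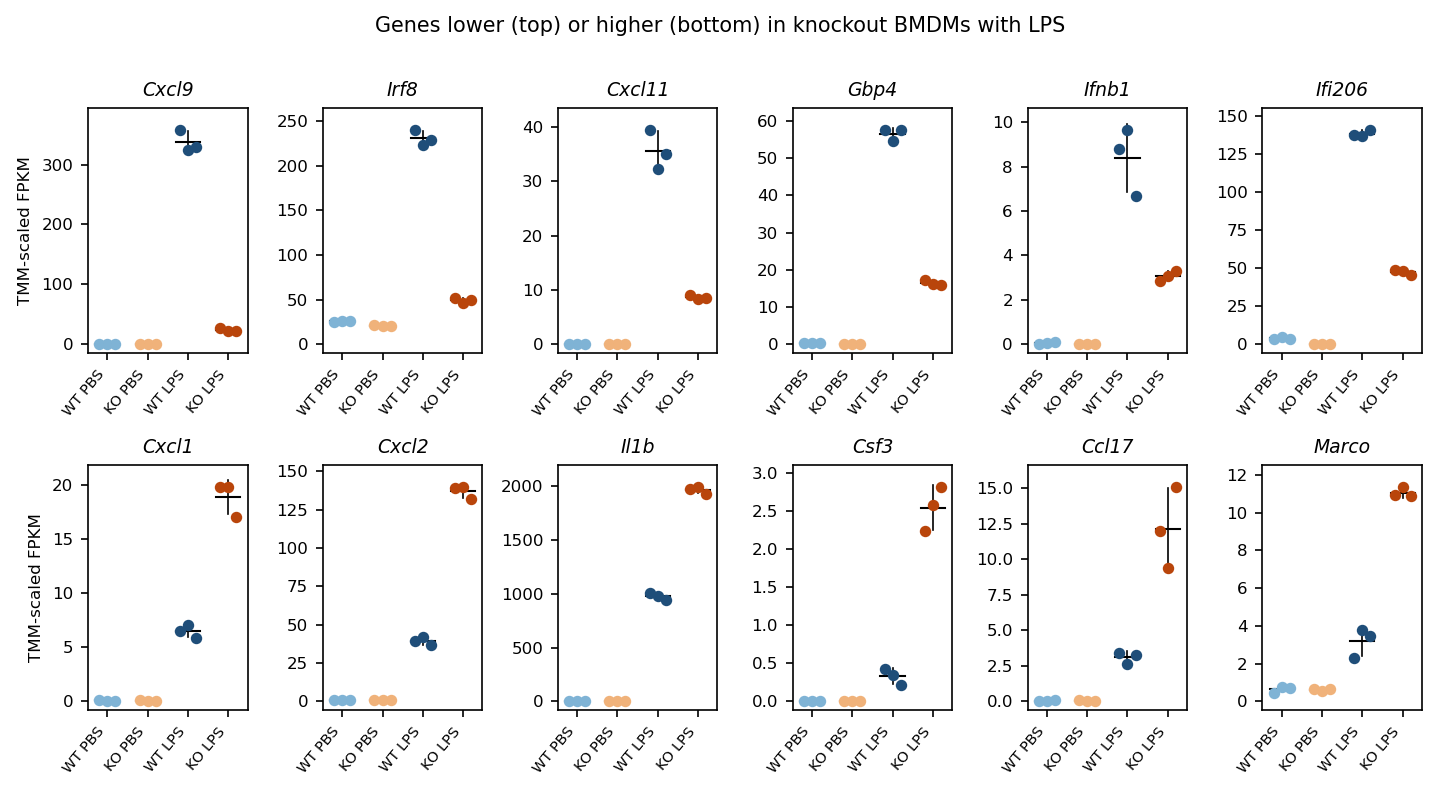
TMM-scaled FPKM (y axes, from 0) of 12 genes in wild-type (WT, blue) and knockout (KO, orange) BMDMs with PBS (pale) or LPS (dark); points are libraries, and bars show the mean and SD of 3. Top-row genes were lower in knockout with LPS (Cxcl9, 337 against 24.2) and bottom-row genes higher (Il1b, 976 against 1968), with no overlap between genotypes in any panel with LPS. For Cxcl9, Irf8, Cxcl11, Cxcl2, Csf3, Ccl17 and Marco the lack of overlap was a condition for naming them among the largest changes.

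The CXC chemokines moved in both directions. Among 10 CXC and CX3C chemokines 4 were higher and 2 lower (60% called, median 0.28), and library totals alone gave 5 and 2. Cxcl2 was at 39.2, 42.2 and 36.8 TMM-scaled FPKM in wild type and 139, 139.9 and 132 in knockout, a 3.48-fold rise (log2 fold change 1.80 ± 0.05, edgeR adjusted p = 5.74e-28). Cxcl1 went from 6.54, 7.01 and 5.89 to 19.8, 19.8 and 17.0 (log2 fold change 1.55 ± 0.09, edgeR adjusted p = 8.57e-17). Cxcl3 went from 5.66, 5.69 and 5.57 to 15.9, 15.8 and 15.6 (log2 fold change 1.48 ± 0.07, edgeR adjusted p = 6.41e-20). All 3 are ligands of CXCR2, which draws neutrophils, and were grouped here after their values were seen. None overlapped between genotypes, which was a condition for naming Cxcl2 among the largest rises. The 3 genes sit in one cluster on chromosome 5. Cxcl9, Cxcl10 and Cxcl11, which lie on the same chromosome, went the other way. Cx3cl1, fractalkine, rose 2.62-fold, from 1.62, 1.97 and 1.90 to 4.62, 4.83 and 4.94.

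The promoters of the CXCR2 ligands are shown because they share the letters GGG followed by any 2 bases and TTTCC, called kappaB-like after the NF-kappaB element. Capitals mark matches on either strand in the 250 bases before the RefSeq start (GRCm38.p6), with 2 matches in Cxcl1 (chr5:90890995-90891244, plus strand), 2 in Cxcl2 (chr5:90903649-90903898, plus strand) and 1 in Cxcl3 (chr5:90785851-90786100, plus strand).
Cxcl1: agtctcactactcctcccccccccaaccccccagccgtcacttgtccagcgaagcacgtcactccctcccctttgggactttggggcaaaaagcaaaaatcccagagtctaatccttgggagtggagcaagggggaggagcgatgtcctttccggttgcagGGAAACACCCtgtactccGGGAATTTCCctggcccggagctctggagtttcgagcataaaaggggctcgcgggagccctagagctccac
Cxcl2: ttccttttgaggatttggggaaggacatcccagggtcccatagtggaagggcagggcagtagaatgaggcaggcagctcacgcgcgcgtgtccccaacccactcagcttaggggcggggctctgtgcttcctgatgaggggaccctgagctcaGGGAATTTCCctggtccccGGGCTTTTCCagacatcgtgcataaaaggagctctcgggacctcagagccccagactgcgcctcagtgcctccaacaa
Cxcl3: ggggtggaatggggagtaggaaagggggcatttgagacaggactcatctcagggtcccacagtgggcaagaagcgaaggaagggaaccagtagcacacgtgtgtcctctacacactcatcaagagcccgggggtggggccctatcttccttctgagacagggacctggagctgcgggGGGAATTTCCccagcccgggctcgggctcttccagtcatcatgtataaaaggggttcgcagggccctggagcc
The identical 10 letters GGGAATTTCC occurred in all 3 promoters, starting 71, 97 and 73 bases before the start. Among all promoters 1.4% held the pattern, as did 2.26% of those of genes called higher with LPS and 3.21% of those called lower. In the CXC list the share was 3 of 8, and these were the promoters printed here.

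Granulocyte and granulocyte-macrophage colony-stimulating factors rose at low levels, with the largest folds upward among the genes eligible for naming. Csf3 had 23 counts over the wild-type LPS libraries and 180 over the knockout ones, or 0.426, 0.348 and 0.213 against 2.24, 2.58 and 2.82 TMM-scaled FPKM (7.63-fold; log2 fold change 2.93 ± 0.32, edgeR adjusted p = 3.38e-09). Csf2 had 15 counts against 114, or 0.301, 0.461 and 0.377 against 2.40, 3.22 and 2.85 (7.34-fold; log2 fold change 2.88 ± 0.39, edgeR adjusted p = 1.3e-07). With PBS they held 0 and 2 counts over all 6 libraries. Csf1, the growth factor of macrophages, was at 87.7 ± 2.79 in wild type and 92.4 ± 1.49 in knockout and its receptor Csf1r at 188 ± 4.67 and 161 ± 5.78 (SD, n = 3), and neither was called. Kitl, the ligand of the stem cell receptor KIT, fell from 9.57, 9.73 and 9.63 to 4.38, 4.31 and 4.14. Of the 11 genes in this group 2 were higher and 1 lower (27.3%, beside 9.22% of all genes).

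CC chemokines gave 4 higher and 1 lower of 14 (35.7%, median 0.11). Ccl17 and Ccl22, ligands of CCR4 on T cells, rose 3.86-fold (3.39, 2.63 and 3.29 against 11.99, 9.40 and 15.1 TMM-scaled FPKM) and 2.16-fold (58.3, 55.3 and 61.2 against 124, 127 and 127; log2 fold change 1.11 ± 0.04, edgeR adjusted p = 1.09e-22). Ccl2, which recruits monocytes, was at 1049, 958 and 931 in wild type and 1502, 1484 and 1448 in knockout. The Ccl2 groups were well apart, but the fold of 1.51 lay on the threshold, and the call was lost with RLE factors, with DESeq2, and when wild-type LPS replicate 2 or 3 or knockout LPS replicate 1 was left out. Ccl8, another monocyte chemokine, fell 1.98-fold (86.1, 65.1 and 69.8 against 35.9, 39.2 and 36.2), a call lost with limma on log2(FPKM + 0.1). Ccl3 was at 2562 ± 148 and 2944 ± 53.8 (SD, n = 3), a fold of 1.15 that was not called. Of 20 chemoattractant receptors 2 were higher and 5 lower (35%), and library totals alone gave 3 of each. Ccr1 fell to 13.6 ± 0.925 from 22.03 ± 0.474 (SD, n = 3), a call that is lost with library totals. Cx3cr1, the fractalkine receptor, rose at a low level, from 0.254, 0.477 and 0.254 to 0.678, 0.846 and 0.821.

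The cytokines showed no common direction. Of 27 LPS-induced cytokines 4 were higher and 5 lower (33.3%, median -0.00). Il1b, which encodes the pyrogen IL-1beta, rose at a high level, from 1004, 983 and 942 TMM-scaled FPKM to 1977, 1996 and 1930.2 (2.01-fold; log2 fold change 1.01 ± 0.03, edgeR adjusted p = 7.62e-25). Osm, oncostatin M, rose 2.57-fold, from 2.51, 1.97 and 2.31 to 6.34, 5.79 and 5.32, and Inhba, the activin A subunit, 1.62-fold. Il10, the main anti-inflammatory cytokine of macrophages, fell 1.81-fold, from 29.4, 25.9 and 27.4 to 14.8, 14.3 and 16.8 (log2 fold change -0.86 ± 0.08, edgeR adjusted p = 1.97e-11). Tnfsf10, the death ligand TRAIL and an interferon-induced gene, fell 2.45-fold, from 68.2, 68.5 and 72.5 to 29.9, 26.9 and 28.8. Among the classical products, Tnf was at 1166, 1155 and 1142 against 1398, 1432 and 1418 (fold 1.23), Il6 at 121, 108 and 104 against 160.3, 154 and 152 (fold 1.40), and Il12b at 367 ± 11.5 against 450.1 ± 15.3 (fold 1.23). Knockout libraries were above wild type in each of these, with adjusted p of 4.93e-06, 1.16e-07 and 4.76e-07 (edgeR), but none was called with TMM scaling. Il6 passed the threshold with library totals alone.

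Genes of the study's itaconate and mitochondrial question gave 1 call in all, in the citrate cycle. By other assays the study reported less itaconate and succinate in LPS-treated knockout BMDMs, and less mitochondrial IRG1, the protein of Acod1. It also reported lower mitochondrial membrane potential and more mitochondrial reactive oxygen species with LPS. RNA levels do not measure any of these. Acod1, the enzyme that makes itaconate from the citrate cycle, had a mean of 1.02 TMM-scaled FPKM with PBS in wild type and 1.30 in knockout, and with LPS stood at 2517, 2541 and 2612 against 2393, 2373 and 2364 in knockout (log2 fold change -0.11 ± 0.03, edgeR adjusted p = 0.00969, not called), and its sign turned to 0.04 with library totals. Aifm1, the mitochondrial oxidoreductase and apoptosis-inducing factor, was at 3.71, 3.73 and 3.87 against 3.91, 3.74 and 3.98 and overlapped (log2 fold change 0.04 ± 0.08, edgeR adjusted p = 0.777). Of the 33 genes of itaconate metabolism, Aifm1 partners and mitochondrial protein import none was called (0% against 9.22%, log2 fold changes from -0.34 to 0.33, median 0.07). Nos2, inducible nitric oxide synthase, was at 264, 271 and 282 against 268, 264 and 262 (edgeR adjusted p = 0.402), and none of 14 arginine and nitric oxide genes was called. The 71 nuclear-encoded respiratory chain genes ranged from -0.29 to 0.06 with no call, and the 12 mitochondrially encoded genes from 0.04 to 0.52 with no call. In the citrate cycle list Pdk3, a kinase that switches off pyruvate dehydrogenase, was the only call of 33, at 12.8, 12.4 and 11.97 in wild type and 6.71, 6.10 and 5.86 in knockout (log2 fold change -0.99 ± 0.08, edgeR adjusted p = 7.23e-14).

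The LPS receptor and NF-kappaB genes gave few calls. Of 24 receptor and adaptor genes 1 was higher and 2 lower (12.5%, median 0.01). Tlr4 overlapped between genotypes (13.4 ± 1.30 against 11.8 ± 0.304 TMM-scaled FPKM, SD, n = 3), and Cd14 was lower in each knockout library, at 570.3, 568 and 569 against 779, 705 and 706, with a fold of 1.28 that was not called. Irak3, the IRAK-M pseudokinase that restrains the MyD88 branch, rose 2.00-fold, from 8.23, 9.18 and 8.86 to 17.7, 17.1 and 17.7 (log2 fold change 1.00 ± 0.06, edgeR adjusted p = 4.28e-17). Ly86, the MD-1 partner of RP105, and the kinase gene Ripk1 fell 1.83-fold (47.6, 42.7 and 43.2 against 25.1, 24.6 and 22.96) and 1.69-fold (19.4, 18.5 and 19.1 against 11.4, 11.4 and 11.0). None of 20 NF-kappaB subunits and inhibitors was called (median -0.05, range -0.48 to 0.58), although 1 passed as higher with library totals. Nfkbia, the inhibitor IkappaB-alpha and a direct NF-kappaB target, was at 498 ± 13.4 and 577 ± 7.41 (SD, n = 3).

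Feedback and immediate-early genes moved in both directions. Among 23 phosphatase and mRNA decay genes 3 were higher and 3 lower (26.1%, beside 9.22% of all genes). Dusp6 and Dusp4, phosphatases that inactivate ERK, rose 2.39-fold (1.498, 1.73 and 1.58 against 3.99, 3.63 and 3.86 TMM-scaled FPKM) and 1.68-fold, while Dusp5, a nuclear ERK phosphatase, fell 2.74-fold (5.91, 4.05 and 5.54 against 1.78, 2.06 and 1.78). Of 21 AP-1, EGR and immediate-early genes 2 were higher and 3 lower (23.8%). Myc rose 2.13-fold, from 2.48, 2.28 and 2.18 to 4.47, 5.06 and 5.32, and Jun fell 1.70-fold, from 29.5, 26.2 and 25.6 to 16.7, 15.2 and 16.0. In Dusp6, Dusp4, Dusp5, Myc and Jun the genotype difference was called neither way with PBS.

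The transcription factors of macrophage identity were reshaped without a net shift, with 6 higher and 6 lower of 30 (40.0%, median 0.00). Besides Irf8 and Irf5, Bach1, the heme-sensing repressor of heme oxygenase, fell 2.76-fold, from 68.3, 68.8 and 72.8 TMM-scaled FPKM to 25.5, 25.2 and 25.4 (log2 fold change -1.46 ± 0.04, edgeR adjusted p = 1.15e-28). Its PBS means were 20.6 ± 0.346 and 19.3 ± 0.453 (SD, n = 3). Batf3, a partner of IRF8, fell 2.19-fold, and Pparg, the lipid-sensing nuclear receptor, 1.74-fold. Bhlhe41 and Bhlhe40, which sustain macrophage proliferation, rose 2.24-fold (1.54, 1.72 and 1.45 against 3.59, 3.36 and 3.62) and 1.78-fold (3.00, 2.57 and 2.65 against 4.75, 4.96 and 4.93), and Ets2 1.78-fold. Spi1, which encodes the lineage factor PU.1, was at 201, 191 and 190.2 against 196, 199 and 205, with overlap and no call (edgeR adjusted p = 0.333).

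A few genes of the Nrf2 pathway, which Bach1 opposes, were called higher. Of 27 Nrf2 genes 4 were higher and none lower (14.8%, median 0.15), beside 9.22% of all genes called and 4.61% called higher. The folds of these 4 ran from 1.56 to 1.65, and none was called at a fold of at least 2. Nfe2l2, which encodes Nrf2, rose 1.58-fold, from 40.4, 40.7 and 40.2 TMM-scaled FPKM to 61.2, 65.8 and 64.8 (log2 fold change 0.66 ± 0.04, edgeR adjusted p = 1.71e-17). Hmox1, heme oxygenase and a target of both factors, rose 1.65-fold, from 62.5, 61.7 and 63.9 to 101, 96.9 and 112. Slc7a11, the cystine importer, rose 1.56-fold, a call lost without wild-type LPS replicate 1, and Gclc, the catalytic subunit for glutathione synthesis, 1.58-fold. None of the 25 superoxide, peroxide and glutathione enzymes was called.

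Some genes of glucose use and cholesterol synthesis rose. In the glycolysis and Hif1a list 8 of 29 were higher and 1 lower (31.0%, median 0.31). Slc2a1, the glucose transporter GLUT1, went from 28.2, 27.6 and 28.7 TMM-scaled FPKM to 48.5, 47.2 and 48.6 (log2 fold change 0.77 ± 0.04, edgeR adjusted p = 2.07e-18). Pfkl, liver-type phosphofructokinase, rose 1.91-fold (8.75, 8.17 and 8.73 against 16.9, 15.6 and 16.7), Slc16a3, the lactate exporter MCT4, 1.73-fold, and Egln3, an oxygen-sensing prolyl hydroxylase, 2.62-fold on 32 counts against 86. Hif1a itself was at 77.1, 78.0 and 76.6 in wild type and 62.6, 64.5 and 60.6 in knockout and was not called (fold 1.23). None of the list was called with PBS, and 8 of 29 members passed the interaction test, 7 of them upward, beside 5.70% of all genes.

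In the cholesterol synthesis list 8 of 28 were higher and 1 lower (32.1%, median 0.49), and library totals alone gave 16 and 1. Hsd17b7, Lss and Sqle, enzymes of the sterol branch, rose 2.24-fold (4.70, 4.73 and 5.06 against 10.5, 10.7 and 11.4 TMM-scaled FPKM), 2.04-fold (1.06, 1.18 and 1.38 against 2.52, 2.26 and 2.64) and 1.86-fold (8.98, 9.57 and 9.96 against 17.7, 17.8 and 17.4). Stard4, a sterol carrier, rose 1.91-fold. Ch25h, the interferon-induced enzyme whose product 25-hydroxycholesterol suppresses sterol synthesis, was the member that fell, from 8.41, 6.47 and 8.05 to 2.85, 2.44 and 2.87 (log2 fold change -1.50 ± 0.17, edgeR adjusted p = 5.56e-09; not called with limma on log2(FPKM + 0.1)). Abca1, which exports cholesterol, was at 40.8, 52.0 and 52.2 against 69.4, 69.4 and 70.9 and was not called with TMM scaling, but passed with library totals and without wild-type LPS replicate 2 or 3. The letters CCAAT were in 17 of 20 promoters of this list, against 34.5% of all promoters.

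**Figure D5:**
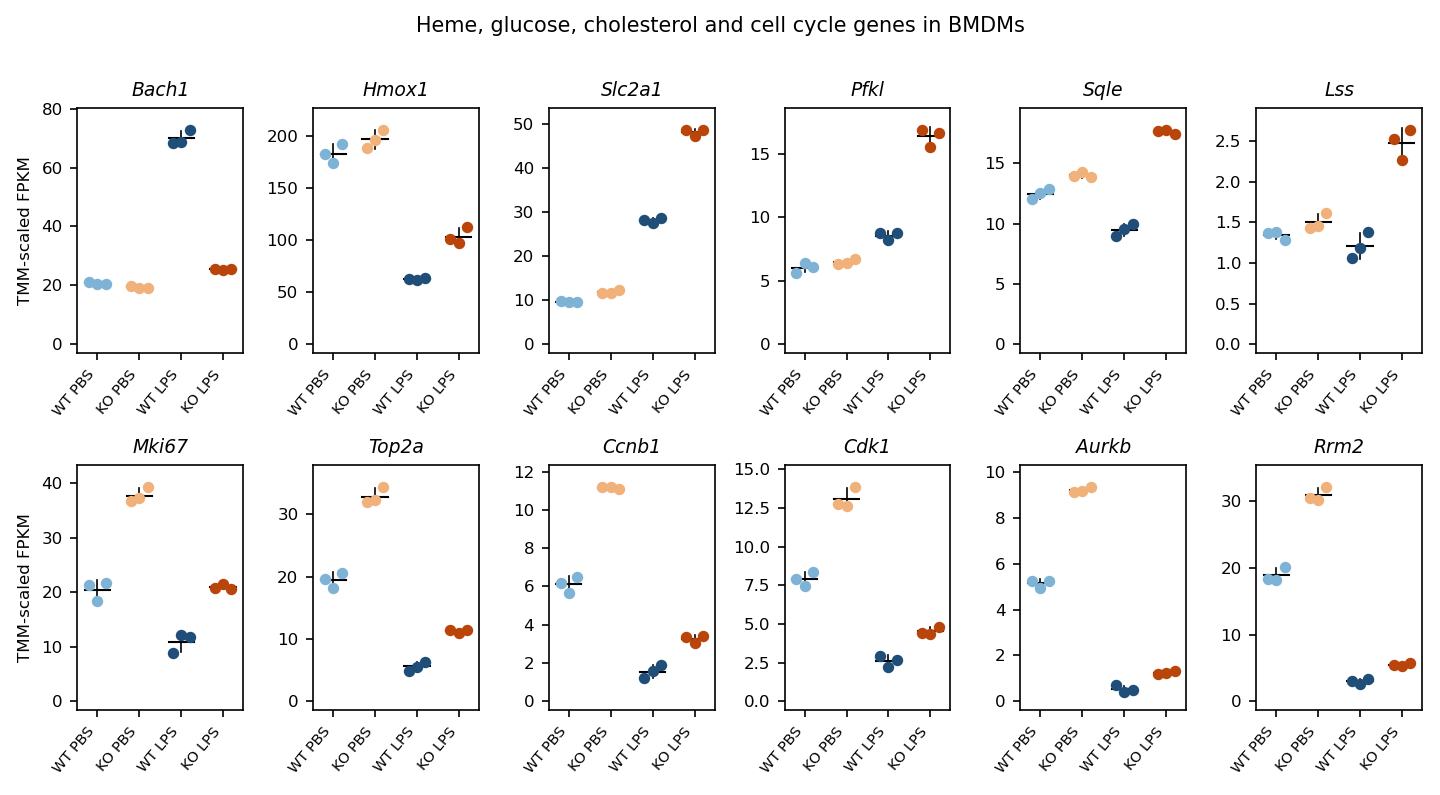
TMM-scaled FPKM (y axes, from 0) of heme, glucose and cholesterol genes (top row) and cell cycle genes (bottom row) in wild-type (WT, blue) and knockout (KO, orange) BMDMs with PBS (pale) or LPS (dark); points are libraries, and bars show the mean and SD of 3. Bach1 with LPS was 70.0 in wild type and 25.4 in knockout, and the cell cycle genes were higher in knockout under both treatments (Mki67, 37.7 against 20.4 with PBS and 20.96 against 10.9 with LPS).

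Mitosis genes were higher in knockout with and without LPS. Of 55 tested members 43 were higher and none lower with LPS (78.2%, median 0.89), and 45 or 46 were higher with limma or library totals. With PBS 48 of the 55 were higher and none lower (median 0.75), beside 1.81% of all genes called higher. Mki67, which encodes the proliferation antigen Ki-67, was at 8.85, 12.2 and 11.8 TMM-scaled FPKM against 20.8, 21.4 and 20.7 (log2 fold change 0.94 ± 0.11, edgeR adjusted p = 0.000179). Wild-type replicate 1 was the lowest of the 6. Top2a, topoisomerase II, went from 4.81, 5.57 and 6.38 to 11.4, 11.0 and 11.5, Ccnb1, cyclin B1, from 1.21, 1.57 and 1.87 to 3.35, 3.04 and 3.43, and Cdk1, its kinase, from 2.94, 2.22 and 2.70 to 4.43, 4.35 and 4.82. Aurkb, the kinase of the chromosomal passenger complex, rose 2.37-fold on 76 counts against 184. These transcripts stood lower with LPS than with PBS in both genotypes, for example Aurkb at 0.520 against 5.16 in wild type and 1.24 against 9.23 in knockout, a treatment difference that was not tested here. The genotype difference changed with LPS in 6 of 55, 3 in each direction, beside 5.70% of all genes called for that term.

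DNA replication genes followed less closely, with 10 of 44 higher and 1 lower (25%, median 0.40) and 4 higher with PBS. Rrm2, a subunit of ribonucleotide reductase, was at 2.99, 2.57 and 3.35 TMM-scaled FPKM against 5.45, 5.31 and 5.70 (1.84-fold, edgeR adjusted p = 8.04e-10). E2f7, a repressor of the E2F cycle genes, had 6 counts in wild type and 49 in knockout with LPS, against 965 and 1547 with PBS. CCAAT stood in 31 of 46 promoters of the mitosis list (67.4%), beside 36.8% of the promoters of genes tested. It was also common in lists whose calls were lower, at 15 of 20 for MHC class I (75%) and 6 of 9 for class II (66.7%). The letters were thus not particular to lists with higher calls.

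Among proteases and lipid mediators single genes moved. Mmp9, gelatinase B, rose 2.59-fold at a low level (0.646, 0.764 and 0.563 against 1.92, 1.65 and 1.51 TMM-scaled FPKM), while Mmp13, collagenase 3, which was abundant, fell 1.84-fold (1104, 973 and 1002 against 577, 546 and 554). Ptges, prostaglandin E synthase, rose 1.64-fold, and Ptgs2, cyclooxygenase 2, was at 281, 293 and 290.3 against 415, 398 and 393, a fold of 1.40 that passed the threshold with library totals and limma but not with TMM scaling. Nlrp3, the inflammasome sensor, was at 152 ± 7.39 and 189 ± 0.496 (SD, n = 3) and was not called. In its list of 22 inflammasome genes 1 was higher and 2 lower (13.6%), with log2 fold changes from -3.02 to 1.01. Ms4a6b, a membrane protein of myeloid cells, fell 2.31-fold. Among genes of cell shape and adhesion, none of 52 actin genes was called (range -0.54 to 0.49) and 1 of 28 integrins and adhesion receptors was lower. The study measured migration itself by transwell assay and reported it reduced in knockout BMDMs. Its gene ontology terms for changed genes also included cell migration. RNA levels of these lists do not measure migration. None of 76 cytosolic ribosomal protein genes was called (median -0.08).

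The remaining genes with the largest rises were not members of the lists above, apart from Sesn1. Sesn1, the p53-induced sestrin that restrains mTORC1, stood far lower with LPS than with PBS, and less so in knockout. Its means were 65.2 and 70.2 TMM-scaled FPKM with PBS, and 0.785, 1.02 and 0.773 in wild type against 2.63, 3.37 and 3.18 in knockout with LPS (interaction 1.72 ± 0.12, edgeR adjusted p = 2.78e-14). Sla, an adaptor that dampens receptor signals, was at 5.21 and 5.62 with PBS and with LPS at 1.56, 1.40 and 1.43 against 5.00, 5.31 and 4.82. Shisa3, an inhibitor of Wnt and FGF receptors, rose 3.39-fold, from 8.01, 7.54 and 8.55 to 27.7, 26.7 and 27.4. Lrrc32, which docks latent TGF-beta, rose 3.17-fold and Dpep3, a membrane dipeptidase, 4.10-fold, both at under 2 TMM-scaled FPKM. Among the largest falls, Armcx6 went from 18.2, 16.2 and 17.6 to 3.91, 4.15 and 3.38 (log2 fold change -2.17 ± 0.10, edgeR adjusted p = 2.04e-20), and Sectm1a from 114 counts to 23.

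Klrk1, which encodes the activating receptor NKG2D, fell 4.03-fold, from 5.81, 5.48 and 5.51 TMM-scaled FPKM to 1.47, 1.32 and 1.38. It is also a marker of natural killer cells, so the marker lists of other cells stand beside it. The 8 NK markers summed to 5.53 to 5.81 in wild type and 1.34 to 1.49 in knockout with LPS, nearly all of it Klrk1, and Gzma, Gzmb, Nkg7 and Eomes were at 0 in all 12 libraries. T cell markers summed to 29.3 to 32.3 and 16.8 to 17.0, with Cd3e, Cd3d, Cd3g, Cd8a and Trac at 0 in all 12 libraries, and the difference came from Lck and Cd4, both called lower. Neutrophil markers summed to 7.07 to 11.1 in wild type and 6.12 to 7.33 in knockout, with overlap, and Ly6g and Retnlg were at 0 throughout. The largest interactions between genotype and treatment in the downward direction, in Clcf1, Asap3 and Upp1, rested on between 2 and 12 counts per group with PBS. Asap3, a GTPase-activating protein of ARF, was 3.57-fold lower in knockout with LPS, at 3.16, 2.77 and 2.88 against 10.4, 9.89 and 11.2, whereas Clcf1, a cytokine of the IL-6 family, was at 1.35, 1.07 and 1.18 against 1.56, 1.71 and 1.87 and was not called, though it was without knockout LPS replicate 1 and with the adjusted p alone.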

How the data were processed

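Poly(A) RNA of 12 BMDM libraries was sequenced by the authors, who deposited for each gene a raw read count and an FPKM value, that is, counts scaled to exonic length and to the library total. The aligner and counter were not given in the sources used here. Per the submitters' processing notes the build was mm10, but 2.76% of the 52073 gene identifiers shared with the GENCODE annotation of GRCm38 had the same position, so the table's coordinates were not printed. Promoter sequences were taken from RefSeq (GRCm38.p6) and matched 9971 of 14053 tested genes by symbol.

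The deposited counts of 56691 genes were filtered with filterByExpr, leaving 14057, scaled with TMM factors and fitted as 4 group means with edgeR 4.0.16 (quasi-likelihood, robust, two-sided, Benjamini-Hochberg over all genes tested; R 4.3.3). A call needs an adjusted p under 0.05 and a fold of at least 1.5. The 2639 rows without a symbol stayed in the table and held under 0.1% of counts in each library. The interaction is the LPS difference minus the PBS difference. The SE of an edgeR log2 fold change was derived from the test, as the absolute log2 fold change divided by the square root of its F statistic. The study's methods name limma, which was run as an alternative (limma 3.58.1 on log2(FPKM + 0.1), log2(FPKM + 1)), as was DESeq2 1.42.0. The fold changes of the limma fits are on the log2(FPKM + pseudocount) scale and understate low genes. TMM-scaled FPKM divides counts by exonic length and by the rescaled library size.

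Genes were named from those the study examined, the 10 largest called changes in each direction with 1 FPKM or more on average in an LPS group and no overlap between genotypes, the key and leading members of each list, and the 3 largest interactions in each direction. Not every leading member of a list is named in the text. The members and lists were chosen with earlier results of these data known. Total counts of 17121240 to 22815104 per LPS library set the precision, and intervals cover counting error only. Scripts were tested on simulated data with equal numbers of rises and falls, a setting that cannot probe how the calls depend on scaling. RAW264.7 cell libraries of the series were not used here.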

Additional observations from a re-analysis of the deposited data

Results flagged for a closer look

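The genotype difference with LPS departed from that with PBS for 17 of the genes followed one by one, by the interaction term of the edgeR fit (log2 scale, LPS difference minus PBS difference, adjusted over all genes). Ccl5, Oasl1, Cxcl3, Clcf1, Asap3 and Upp1 were picked from genes already called for this term, so they passed by selection. The others, apart from Il1b, were picked for a large difference with LPS, which favours a departure from PBS. The count of 17 is therefore not a result of its own. In 8 genes that were higher in knockout with LPS the term was positive. The neutrophil and inflammatory genes Cxcl2 (1.48), Cxcl3 (3.34) and Il1b (0.86) were among them, with edgeR adjusted p of 2.58e-07, 0.0285 and 4.81e-06. Marco (1.85), Sesn1 (1.72), Sla (1.68), Dpep3 (1.65) and Lrrc32 (1.19) showed differences with PBS between -0.05 and 0.47, none of them called.

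In the interferon-induced genes Ccl5 (4.12), Oasl1 (3.65) and Ifi27l2a (0.89) the term was also positive, and the difference was more negative with PBS (-4.21, -4.06 and -3.05) than with LPS (-0.10, -0.42 and -2.16). It was negative for Irf8 (-1.93; edgeR adjusted p = 2.94e-26), Il18rap (-2.24) and Armcx6 (-1.68), whose PBS differences were between -0.49 and -0.31. Clcf1 (-2.90), Asap3 (-2.81) and Upp1 (-2.56) had edgeR adjusted p of 0.014, 0.0165 and 0.0364 and between 2 and 12 counts per group with PBS, and Cxcl3 had 5 and 1.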

How the results depend on the processing

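The number of genes called with LPS (1296) was 766 when only genes with a mean FPKM of at least 1 were kept, 439 with limma on log2(FPKM + 1), 4898 on adjusted p alone and 477 at a fold of at least 2. The share of calls that were higher in knockout, 50%, moved to 72.6% with library totals alone and to 67.9% with limma on log2(FPKM + 0.1). Olfml3 missed the threshold with limma on log2(FPKM + 1), at -0.31, and had no value under the FPKM filter. Acod1 turned to 0.04, Nos2 to 0.10 and Ccl5 to 0.05 with library totals and with both limma fits, and none of these was a call. Leaving out 1 LPS library at a time gave 1228 to 1299 calls, 49% to 50.9% of them higher, and Olfml3 values of -8.53 to -5.80. Of 108 named genes called, 83 kept the call in every setting that gave them a value other than the fold of at least 2, and none reversed. Library totals ended 10 of these calls and limma on log2(FPKM + 0.1) 13, and these are marked in the report, while limma on log2(FPKM + 1) ended 21.

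Same-numbered libraries of the 2 genotypes correlated at 0.026 to 0.052 in their deviations with LPS, and differently numbered ones at -0.038 to 0.0036. Each LPS library thus correlated best with its own number, though weakly. Whether the numbers mark a pairing was not tested, and the main fit treated the libraries as unpaired. With replicate number as a block, 1275 genes were called with LPS, 525 with PBS and 790 for the interaction. The alternatives for PBS were chosen after seeing the data and gave 481 to 556 calls, against 530. Genes with few counts, such as Csf2, Csf3 and E2f7, carry the widest errors, and a library with 0 counts allows up to 3.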

Other observations

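Several groups outside the comparisons above had calls in both directions or in few members. In the p53 and stress arrest list 1 of 20 was higher and 2 lower, in the Bcl-2 family 1 of 15 was lower, in the lysosomal cathepsin list 3 of 31 were lower (9.68%, median -0.21), in the MS4A list 2 of 11 were higher and 3 lower, and in the alternative activation list 3 of 21 were higher and 1 lower, beside 9.22% of all genes called. B cell, dendritic cell, mast cell and erythroid markers each summed to under 1 TMM-scaled FPKM in every LPS library. Stromal markers summed to 1.08 to 1.35 in wild type and 1.29 to 1.76 in knockout, and endothelial markers to 11.7 to 14.5 and 13.4 to 13.8. Mitochondrially encoded genes took 1.87% to 1.92% of counts in wild-type and 2.17% to 2.23% in knockout LPS libraries, and 2.23% to 2.29% and 2.72% to 2.74% with PBS.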
